A study of Arabidopsis thaliana with 6 samples.

Results

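The change in transcription factor (TF) transcripts between the early and the advanced stage of somatic embryogenesis was described in cultures of Arabidopsis thaliana Col-0. TF transcripts had been measured by quantitative RT-PCR, with a primer pair per gene, in 2 genotypes, Col-0 and tanmei, at 0, 5 and 10 d. The groups described here are Col-0 cultures at 10 d (advanced embryogenic) and Col-0 cultures at 5 d (early embryogenic). Both had been induced from immature zygotic embryos, dissected at the late cotyledonary stage from siliques 10 to 12 d after pollination, and grown on medium with 5 µM 2,4-D, a synthetic auxin. Values of Col-0 explants at 0 d, and of tanmei (tan1-2) cultures at 10 d and 5 d on the same medium, are set beside them. In tanmei, an embryo mutant impaired in somatic embryogenesis, the cultured tissue was non-embryogenic.

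For each gene and group the authors deposited 1 mean Ct, the PCR cycle at which the product crosses the detection threshold, averaged over 3 replicates. A Ct lower by 1 stands for about 2-fold more transcript. The log2 change was Ct at 5 d minus Ct at 10 d, minus the median of that difference among the rows of the same plate, so that a positive change means a higher level at 10 d relative to the median gene. Rows entered when the Ct was below 35 at 10 d or at 5 d, and an empty Ct was set to 40. This left 1663 of the 1880 deposited rows, each the value of a primer pair. With 1 value per group there was no replicate check and no test, and no difference below could be set against the spread between replicates. In tissue of this kind, fewer cells of a type and less RNA per cell cannot be told apart.

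In somatic embryogenesis, cells of an explant leave their own fate under auxin and form embryos without fertilization. Single genes are named here from only the AP2/EREBP and ABI3/VP1 families. Proteins of the AP2/EREBP family bind DNA through an AP2 domain, and they include the PLETHORA regulators of meristems and embryos, the DREB proteins of cold and drought responses, and the ERF proteins that act in ethylene, wounding and defence responses. The ABI3/VP1 family holds B3-domain proteins, among them ABI3, FUS3 and LEC2, which control embryo maturation and embryo identity, and the VAL proteins, which silence these regulators after germination.

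Between 5 d and 10 d most of the TF rows stayed within 2-fold of the median gene of their plate. Because the plate median was subtracted, these changes cannot show a shift of the whole TF set. Of the 1663 rows, 1123 (67.5%) lay within 2-fold. At least 2-fold higher at 10 d were 295 rows (17.7%), and at least 2-fold lower were 245 rows (14.7%). At least 10-fold higher were 35 rows (2.1%) and at least 10-fold lower were 18 rows (1.08%), of which 8 and 6 had an empty Ct in the group with the lower level. With a Ct below 35 required in both groups, 16 and 4 rows remained past 10-fold, so most of these rows entered through only the group with the higher level. The quartiles of the change were -0.58 and 0.68. Before centring, the median row had a lower Ct at 10 d on all 5 plates, by 0.11 to 0.72 cycles. With no centring 472 of the 1663 rows were at least 2-fold higher and 142 at least 2-fold lower. The shift was 0.66 cycles on the plate that holds every row of the 2 named families.

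The AP2/EREBP family had 133 of its 146 rows in the comparison. At least 2-fold higher at 10 d were 31 rows (23.3%, against 17.7% of all rows), and at least 2-fold lower were 20 (15.0%, against 14.7%). Among the 199 rows of other families on the same plate the shares were 17.6% higher and 14.1% lower. The family median was 0.09. At least 10-fold higher were 4 of the 133 rows, CBF2, DREB2A, CBF3 and LEP, against 2.1% of all rows. No row of the family was 10-fold lower, against 1.08% of all rows. All 13 rows of the ABI3/VP1 family entered, and none was at least 2-fold higher at 10 d, against 17.7% of all rows. At least 2-fold lower were 4 rows (30.8%, against 14.7%), and none changed 10-fold. The family median was -0.55, the lowest of the 38 families with at least 10 rows under plate centring. With 1 median over all plates it was -0.36, with 9 families below it and HB lowest at -0.51. With no centring it was 0.12, again with 9 families below it.

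Within the 2 named families, CBF2, DREB2A and CBF3 had the largest increases at 10 d. Over all rows, changes of rows that are not named ranged from -10.04 to 8.47. CBF2, one of the CBF activators of cold-regulated genes, had a Ct of 26.67 at 10 d and 32.33 at 5 d, a change of 5.00 on the log2 scale or 32.0-fold. CBF3 had a Ct of 26.42 at 10 d and 30.80 at 5 d, a 13.2-fold higher level. CBF1 had a Ct of 29.56 at 10 d and 33.45 at 5 d, a 9.36-fold higher level. The CBF genes are close paralogues, and whether their primer pairs distinguish them was not tested. DREB2A, an activator of drought and heat responses, had a Ct of 21.87 at 10 d and 26.43 at 5 d, 14.9-fold higher. Not all of the group moved in this direction. DDF1, a CBF relative whose overexpression gives dwarf and salt-tolerant plants, had a Ct of 31.86 at 10 d and 31.43 at 5 d, a change of -1.09. DDF2 had no Ct below 35 at 10 d or 5 d in Col-0. A further CBF/DREB1 row was also at least 2-fold higher and is not named, because its code lies in a run of 22 doubtful codes, in which 9 codes carried another profile in the study's gene list.

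Of the 8 rows of the DREB2 and ABI4 group, 2 were at least 2-fold higher (25%, against 17.7% of all rows) and 2 at least 2-fold lower (25%, against 14.7%). The higher ones were DREB2A and DREB2D, the second with a change of 2.13. The lower ones were DREB2F, with a Ct of 29.04 at 10 d and 28.24 at 5 d, a change of -1.46, and DREB2E, with a Ct of 24.31 at 10 d and 23.61 at 5 d, a change of -1.37. ABI4, a regulator of abscisic acid and sugar responses in seeds, changed by -0.71. The group median was -0.26.

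**Figure D1:**
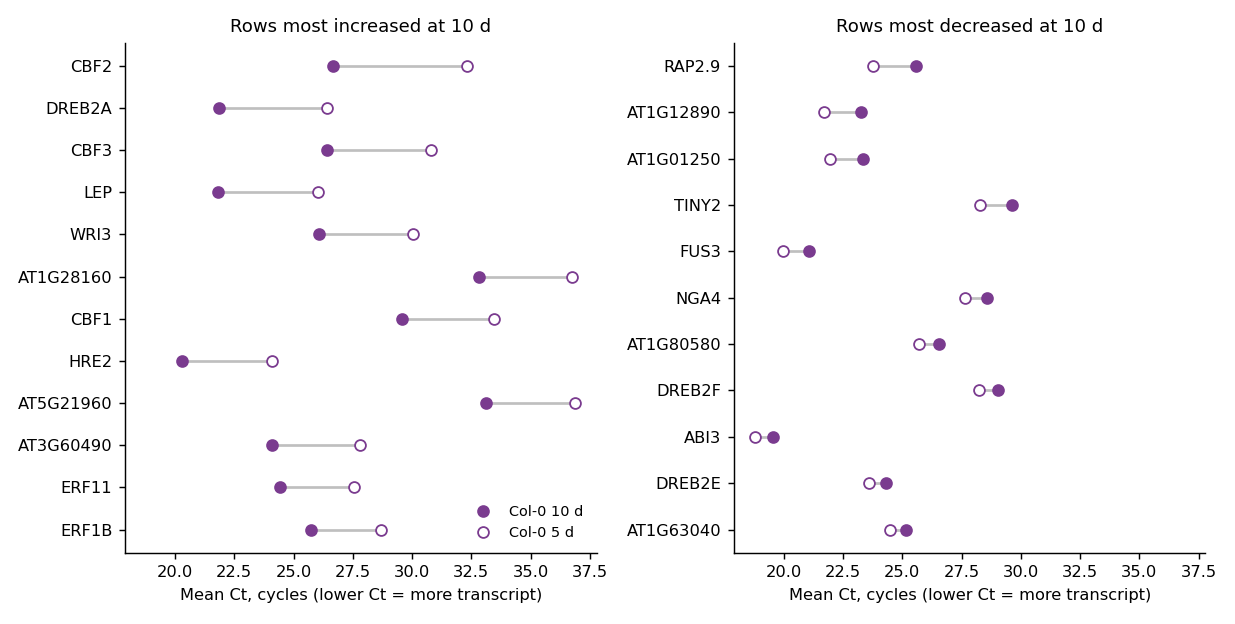
Mean Ct (x axis, cycles) at 10 d (filled) and 5 d (open) in Col-0 for the AP2/EREBP and ABI3/VP1 rows with the largest changes, ordered by the plate-centred change; 12 rows are on the left and 11 on the right, where a row with a doubtful code is left out. CBF2 has the longest line, from a Ct of 26.67 at 10 d to 32.33 at 5 d, and the lines of the decreased rows are shorter. Lines are drawn before plate centring. The plate shift of 0.66 cycles thus lengthens the lines of increased rows and shortens those of decreased rows.

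LEP and WRI3 were also among the 12 most increased rows. LEP (LEAFY PETIOLE), an ERF whose overexpression extends the leaf blade along the petiole, had a Ct of 21.80 at 10 d and 26.05 at 5 d, 12.0-fold higher. PUCHI, which acts in lateral root primordia and floral meristems, had a Ct of 23.95 at 10 d and 26.89 at 5 d, a change of 2.28. Their relatives DRN and DRNL, which act at the formation of cotyledons and lateral organs, changed by -0.31 and -0.58, within 2-fold. The 4 rows of this group thus split between a pair that was higher and a pair near the median gene.

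WRI3, a WRINKLED protein that activates fatty acid synthesis outside the seed, had a Ct of 26.06 at 10 d and 30.02 at 5 d, 9.83-fold higher. Its relative WRI1, the activator of oil synthesis in seeds, went the other way, with a Ct of 21.16 at 10 d and 20.52 at 5 d, a change of -1.31. WRI4, which acts in cuticular wax synthesis, changed by 0.86. SHN1, an activator of wax and cutin genes, had a change of 2.21 on late cycles, with a Ct of 33.27 at 10 d and 36.14 at 5 d, and so entered only through its level at 10 d. SHN2 changed by 0.84.

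The ERF groups differed in their counts. In group IX, which holds activators of ethylene, jasmonate and pathogen responses, 6 of 11 rows were at least 2-fold higher (54.5%, against 17.7% of all rows) and 1 lower (9.09%, against 14.7%), with a median of 1.37. Leaving out 4 rows with doubtful codes, 5 of 7 were higher and none lower. ERF1B, an activator of ethylene and jasmonate defence genes, had a Ct of 25.75 at 10 d and 28.71 at 5 d, 4.91-fold higher. ERF6, ERF13, ERF1 and ERF15 changed by 1.69, 1.68, 1.44 and 1.37, and ORA59 by 0.03.

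Among the group VIIIa repressors, which carry an EAR repression motif, 3 of 7 rows were at least 2-fold higher (42.9%, against 17.7% of all rows) and none lower. ERF11, a repressor of ethylene synthesis genes, had a Ct of 24.45 at 10 d and 27.54 at 5 d, a change of 2.43, and ERF8 and ERF10 changed by 1.73 and 1.29. In group VII, the oxygen-sensing ERFs, HRE2 had a Ct of 20.28 at 10 d and 24.08 at 5 d, 8.82-fold higher, and HRE1 changed by 1.13. These are the hypoxia-induced members of the group. The changes of the members present without hypoxia were 0.84 for RAP2.3, 0.37 for RAP2.2 and -0.75 for RAP2.12. With 1 median over all plates RAP2.3 was past 2-fold at 1.02, and with no centring RAP2.3 and RAP2.2 both were, RAP2.2 at 1.04. In group X, which holds wound and stress ERFs, none of 6 rows was higher and 2 were lower (33.3%, against 14.7%).

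In the TEMPRANILLO and RAV group, whose proteins combine an AP2 and a B3 domain and restrain flowering and growth, EDF3 and TEM1 were at least 2-fold higher among 4 rows (50%, against 17.7% of all rows), with changes of 1.43 and 1.10. The 12 most increased rows also held AP2/EREBP genes of less known function. AT3G60490 had a Ct of 24.11 at 10 d and 27.82 at 5 d, AT1G28160 had 32.82 at 10 d and 36.74 at 5 d, and AT5G21960 had 33.11 at 10 d and 36.88 at 5 d. The Ct at 5 d of AT1G28160 and AT5G21960 lay above 35.

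Among the embryo maturation regulators, FUS3 and ABI3 were lower at 10 d. Of the 13 ABI3/VP1 codes, 2 carried the same profile in the study's gene list, those of ABI3 and NGA1. The others, among them FUS3 and LEC2, could not be checked against it. FUS3 had a Ct of 21.08 at 10 d and 19.96 at 5 d, a change of -1.79 or a 3.46-fold lower level. ABI3 had a Ct of 19.56 at 10 d and 18.80 at 5 d, a change of -1.42. LEC2, which can induce somatic embryos when overexpressed, had a Ct of 27.24 at 10 d and 27.74 at 5 d, a change of -0.16. FUS3 and ABI3 remained readily detected at both times. Without plate centring the change of FUS3 was -1.13 and that of ABI3 -0.76, so that ABI3, like NGA4, VAL1, WRI1, AIL1, DREB2E, DREB2F, RAP2.6L, DDF1, CRF1, AT1G80580 and AT1G63040, was no longer past 2-fold.

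The other ABI3/VP1 rows moved in the same direction or lay near the median gene. NGA4, a NGATHA protein of style and leaf margin growth, had a Ct of 28.56 at 10 d and 27.65 at 5 d, a change of -1.57. The other 6 NGATHA and NGATHA-like rows ranged from -0.69 to 0.42. VAL1, which represses the embryo regulators after germination, changed by -1.10, and VAL3 and VAL2 by -0.43 and -0.28. Of the 13 ABI3/VP1 rows, 10 were below 0 after plate centring, against 61 of 133 AP2/EREBP rows. This count depended on the centring, since with none the family median was 0.12.

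The PLETHORA and AINTEGUMENTA-LIKE genes, which maintain root and shoot meristems and, for BBM, can induce somatic embryos when overexpressed, changed little. None of 8 rows was at least 2-fold higher and 1 was lower (12.5%, against 14.7% of all rows), with a median of -0.08. PLT1 had a Ct of 19.75 at 10 d and 21.30 at 5 d, a change of 0.89, and PLT2 changed by 0.18. BBM had a Ct of 31.79 at 10 d and 32.39 at 5 d, a change of -0.07, and was amplified late in both groups. AIL1 was the row that passed 2-fold, with a Ct of 23.56 at 10 d and 23.13 at 5 d, a change of -1.09. With 1 median over all plates in place of the plate medians, AIL1, VAL1, DDF1 and CRF1 were no longer past 2-fold, and PLT1 was, at 1.07.

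**Figure D2:**
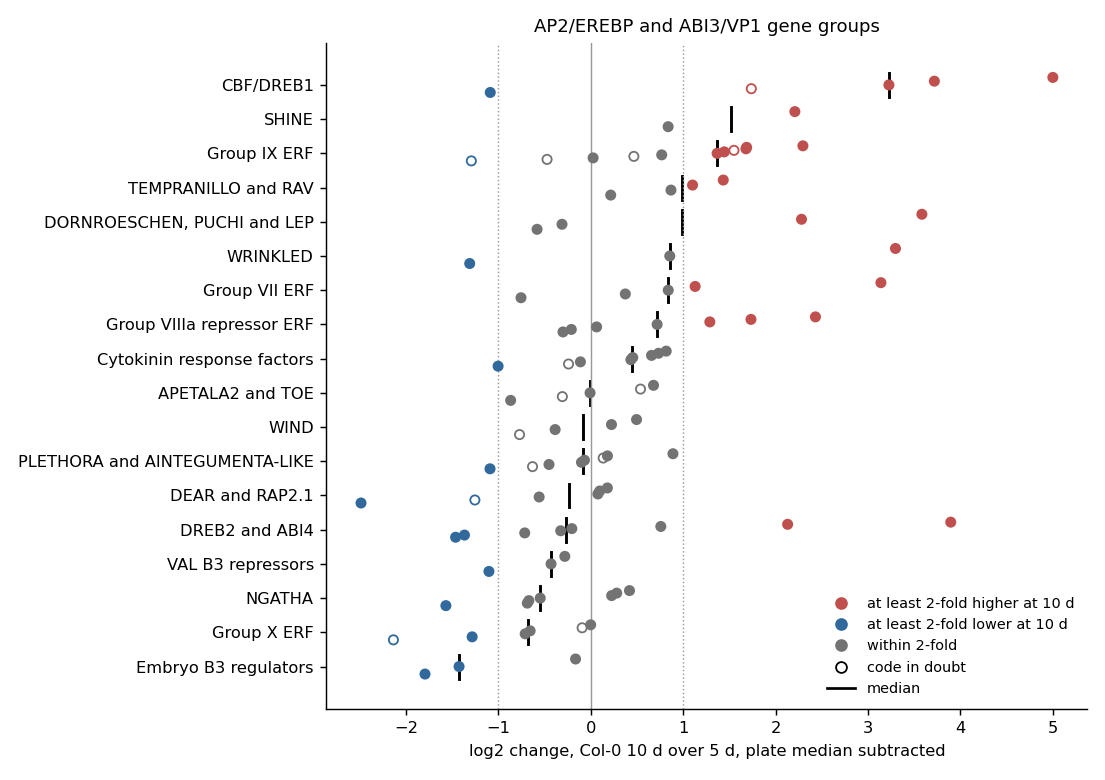
Change in Col-0 at 10 d over 5 d (x axis, log2, plate median subtracted) of each row of the 18 AP2/EREBP and ABI3/VP1 gene groups, with the group median as a bar and doubtful codes as open points. CBF/DREB1 has the highest median, 3.23 over 5 rows, and the embryo B3 regulators the lowest, -1.42 over 3 rows. Dotted lines mark 2-fold.

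Across all 18 groups, 23 of 99 rows were at least 2-fold higher (23.2%, against 17.7% of all rows) and 15 lower (15.2%, against 14.7%). Group medians passed 2-fold upwards in CBF/DREB1 and group IX ERF, at 3.23 and 1.37, and downwards in the embryo B3 regulators, at -1.42. They rest on 5, 11 and 3 rows, and the first and last are the values of CBF1 and ABI3 themselves. In CBF/DREB1, 4 of 5 rows were higher (80%, against 17.7%) and 1 lower (20%, against 14.7%), with 1 doubtful code among the higher ones. Of the embryo B3 regulators 2 of 3 were lower (66.7%, against 14.7%). The SHINE median of 1.52 rests on 2 rows and was 0.84 with a Ct below 35 required in both groups. With no centring the median of the embryo B3 regulators was -0.76, and 9 group medians passed 2-fold, all upwards. Of the cytokinin response factors, named for their induction by cytokinin, none of 8 rows was at least 2-fold higher, and 1, CRF1, lay just past the limit on the lower side. This depended on the centring, since with none 5 of 8 rows were at least 2-fold higher (CRF2, CRF5, CRF4, CRF7 and CRF8), the group median was 1.11, and CRF1 was within 2-fold. The WIND genes, activators of callus formation at wounds, all lay within 2-fold, with 0.50 for WIND1, which was 1.16 with no centring. Of the 2 group X rows that were lower, RAP2.6L, which acts in tissue reunion after cutting, changed by -1.28, and the other has a doubtful code. ERF115, which drives division of stem cells and of cells beside a wound, changed by -0.71.

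The remaining decreased rows came from the DREB subfamily and from genes of little known function. RAP2.9, a DREB-type protein with an EAR repression motif, was the most decreased, with a Ct of 25.59 at 10 d and 23.77 at 5 d, a change of -2.48 or 5.60-fold lower. AT1G12890 had a Ct of 23.27 at 10 d and 21.70 at 5 d, a change of -2.24. AT1G01250 had a Ct of 23.33 at 10 d and 21.96 at 5 d, a change of -2.04, and TINY2, a DREB-type relative of TINY, changed by -2.02. The smallest of the 12 largest decreases was AT1G63040, at -1.32. No decrease in either family reached the size of the 10 largest increases, which were all above 3.

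The step before the change at 10 d differed among the most increased genes. Between 0 d and 5 d, 33.2% of the 1661 rows that entered were at least 2-fold higher and 28.7% at least 2-fold lower at 5 d. Both steps use the same 5 d mean, so a deviation in it would move them in opposite directions. Of the 11 most increased rows with a value in that step, 7 were at least 2-fold lower at 5 d than at 0 d and 4 at least 2-fold higher. CBF2 had Ct values of 26.17, 32.33 and 26.67 at 0, 5 and 10 d, so that its Ct at 10 d was close to that of the explant. DREB2A likewise had 21.69, 26.43 and 21.87 at 0, 5 and 10 d. CBF1 had 26.25, 33.45 and 29.56, and remained above its explant Ct at 10 d.

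Another set was higher at each later time. LEP had Ct values of 37.26, 26.05 and 21.80 at 0, 5 and 10 d, and PUCHI was listed at 40 in explants and had 26.89 and 23.95 at 5 and 10 d. WRI3 had 31.82, 30.02 and 26.06, and ERF1B had 31.27, 28.71 and 25.75. ABI3 ran the other way, with 18.08, 18.80 and 19.56 at 0, 5 and 10 d, while FUS3 had 20.09, 19.96 and 21.08. PLT1 had 25.67, 21.30 and 19.75, with the larger part of its change before 5 d.

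**Figure D3:**
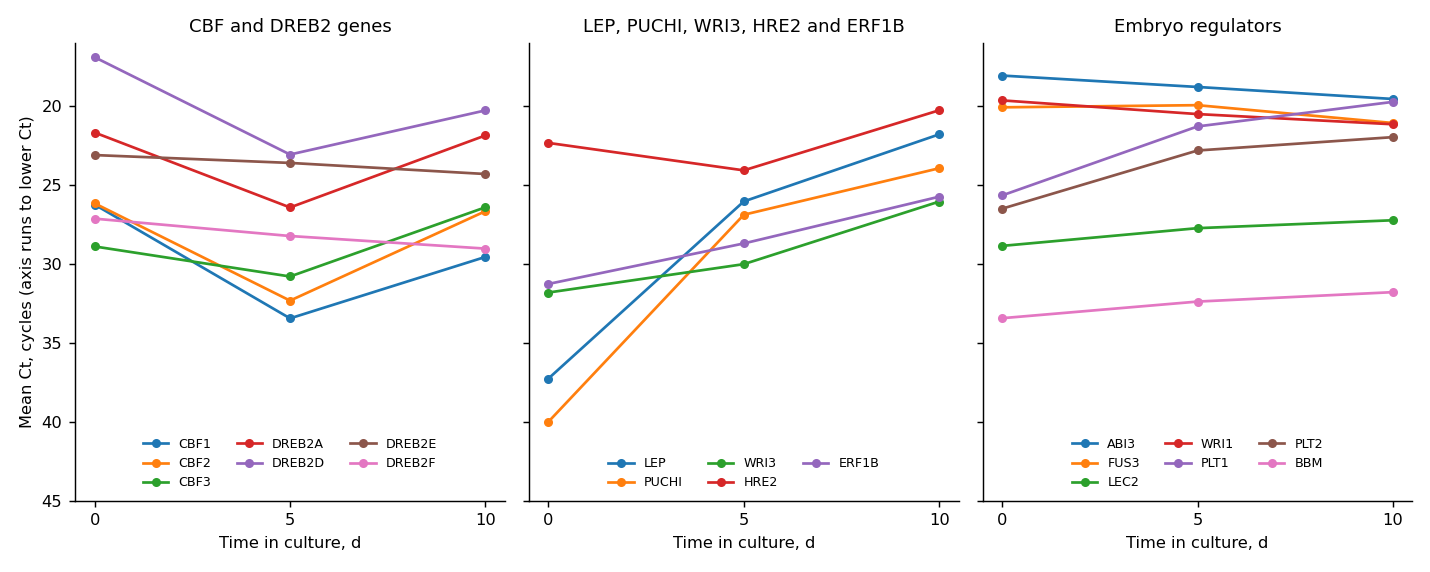
Mean Ct (y axis, cycles, drawn so that lower Ct is higher up) in Col-0 at 0, 5 and 10 d for named genes, before plate centring; the Ct of PUCHI at 0 d is the listed 40. CBF1, CBF2, CBF3, DREB2A and DREB2D dip at 5 d, LEP, PUCHI, WRI3 and ERF1B climb at each time, and ABI3 and WRI1 decline slowly.

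The same 2 times were measured in the non-embryogenic tanmei cultures, which share no sample with Col-0. There 15.8% of the 1638 rows were at least 2-fold higher at 10 d and 16.9% at least 2-fold lower. Of the AP2/EREBP rows, 28 of 140 were higher and 22 lower in tanmei. Differences between the genotypes were not tested, since each group has 1 value. Across the 132 AP2/EREBP rows that entered in both genotypes, the changes had a Pearson correlation of 0.35 and a Spearman correlation of 0.35, as a description over genes that share primer pair and plate. Over all 1592 rows these were 0.23 and 0.29.

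All 11 of the most increased rows with a value in tanmei were above 0 there, and 6 of them were at least 2-fold higher. These rows were picked by their change in Col-0, so smaller changes in tanmei can follow from that choice alone. DREB2A had a Ct of 21.87 at 10 d and 26.43 at 5 d in Col-0, against 27.01 at 10 d and 27.21 at 5 d in tanmei, where its change was 0.32. CBF3 changed by 3.72 in Col-0 and 0.64 in tanmei, LEP by 3.58 and 0.91, and WRI3 by 3.30 and 0.50. For CBF2 the changes were 5.00 in Col-0 and 1.41 in tanmei. PUCHI, AT3G60490 and AT5G21960 changed by 2.28, 3.05 and 3.11 in Col-0 and by 2.91, 3.24 and 3.70 in tanmei. ERF1B had a Ct of 25.75 at 10 d and 28.71 at 5 d in Col-0, against 24.07 at 10 d and 26.95 at 5 d in tanmei.

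ABI3 and FUS3 were lower at 10 d in both genotypes. ABI3 had a Ct of 19.56 at 10 d and 18.80 at 5 d in Col-0, against 31.03 at 10 d and 25.67 at 5 d in tanmei, with changes of -1.42 and -5.23. FUS3 had 21.08 at 10 d and 19.96 at 5 d in Col-0, against 28.24 at 10 d and 25.84 at 5 d in tanmei, with changes of -1.79 and -2.28. At 10 d the Ct of ABI3 was 11.5 cycles and that of FUS3 7.15 cycles higher in tanmei than in Col-0, where the median row of the plate differed by 0.85. At 5 d these differences were 6.87 and 5.89 cycles, with a median of -0.22. WRI1 changed by -1.31 in Col-0 and 0.17 in tanmei.

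**Figure D4:**
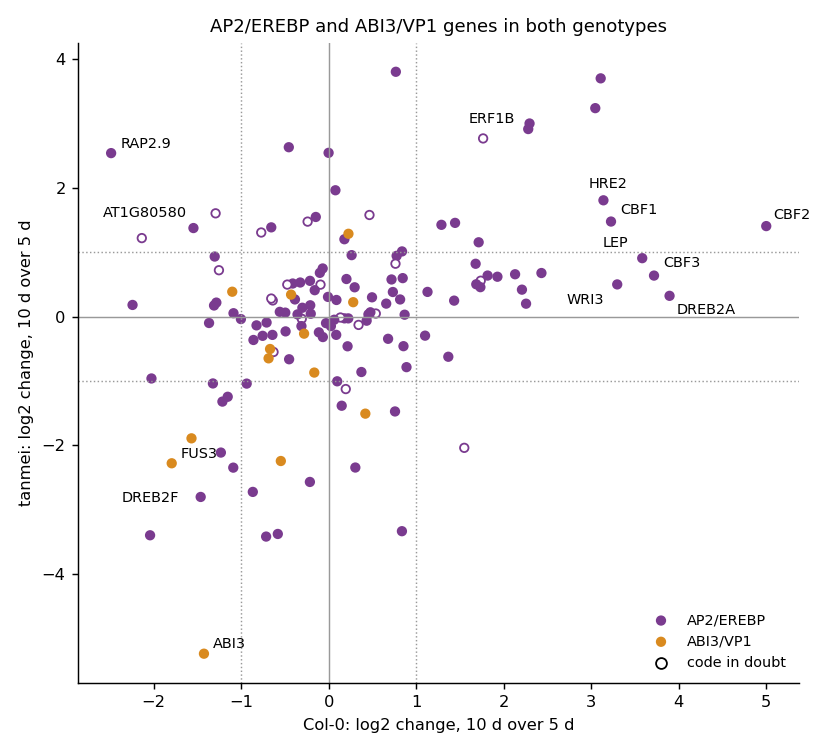
Change at 10 d over 5 d (log2, plate median subtracted) in Col-0 (x axis) and tanmei (y axis) for the AP2/EREBP and ABI3/VP1 rows that entered in both genotypes, with doubtful codes as open points and dotted lines at 2-fold. CBF2, DREB2A, CBF3, LEP and WRI3 lie far to the right and low, with 1.41 in tanmei as the highest of these, and ABI3 lies lowest, at -5.23.

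Other families are given as families only, because their codes mostly carried another profile in the study's own gene list. Their family labels were borne out for 122 of the 204 rows that could be linked, among them 31 of 35 for bHLH and 20 of 21 for C2H2. Of 38 families with at least 10 rows, 35 had a median between -0.5 and 0.5. Rows labelled JUMONJI, the name of a class of histone demethylases, had the highest median, 1.07, with 5 of 10 at least 2-fold higher (50%, against 17.7% of all rows) and none lower. PHD finger rows, named for a domain that reads histone marks, had 0.86 with 3 of 10 higher (30%). With a Ct below 35 required in both groups, fewer than 10 JUMONJI rows were left. No row of either family could be linked, so these labels were not checked.

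Of the MADS rows, a family of floral and embryo regulators, 72 of 105 entered. At least 2-fold higher were 23 (31.9%, against 17.7% of all rows), and 7 were lower (9.72%, against 14.7%). At least 10-fold higher were 5 of 72, against 2.1% of all rows. The plate that holds the MADS and JUMONJI rows had 23.4% of its rows higher and 12.2% lower. The MADS counts were not repeated with a Ct below 35 required in both groups. Trihelix rows were higher in 11 of 33 (33.3%, against 17.7% of all rows) and lower in 5 (15.2%, against 14.7%). Their family median was nonetheless below 0, at -0.19. The homeobox (HB) rows had 14 of 88 higher (15.9%) and 24 lower (27.3%), and the C2H2 zinc finger rows 17 of 124 higher (13.7%) and 29 lower (23.4%). The bHLH rows had 26 of 142 higher (18.3%) and 24 lower (16.9%), near the shares of all rows. In families of hormone signalling the Aux/IAA repressors of auxin signalling had 6 of 29 rows higher (20.7%) and 4 lower (13.8%), near the shares of all rows. The ARF factors they bind had 3 of 18 higher (16.7%, also near the 17.7% of all rows) and none lower. The type-B response regulators of cytokinin signalling (GARP-ARR-B) had none of 11 in either direction. The labels of the Aux/IAA rows were borne out for 5 of 9 linked rows, and no ARF, GARP-ARR-B or Trihelix row could be linked.

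**Figure D5:**
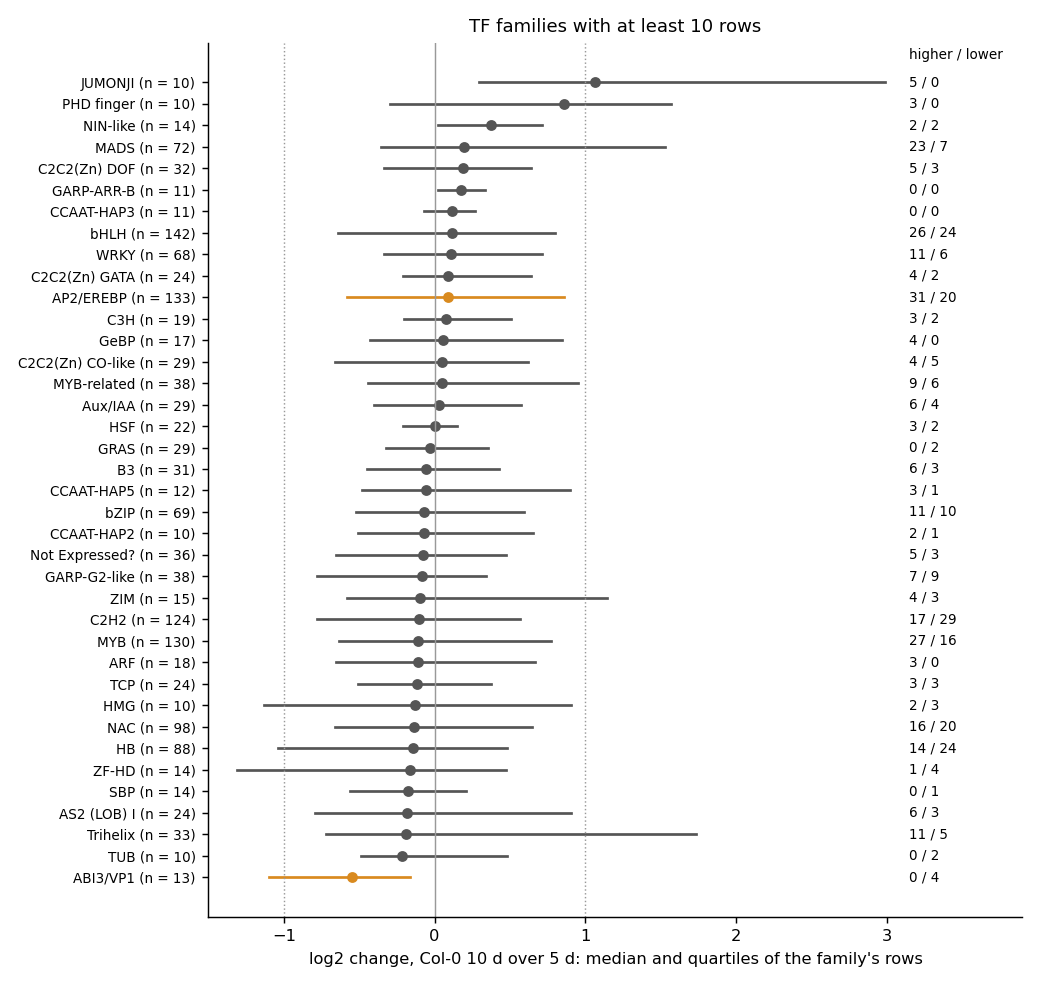
Median and quartiles of the change in Col-0 at 10 d over 5 d (x axis, log2, plate median subtracted) for the 38 families with at least 10 rows, with the numbers of rows at least 2-fold higher and lower at the right. JUMONJI has the highest median, 1.07, and ABI3/VP1 the lowest, -0.55, under plate centring; with 1 median over all plates ABI3/VP1 is at -0.36 and 9 families lie below it.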

How the data were processed

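The deposited table holds mean Ct values that the authors averaged over 3 replicates of multi-parallel quantitative RT-PCR with SYBR Green; how many replicates gave a Ct behind each value is not given in the sources used here. The values are not normalized to a reference gene. No measure of precision comes with the values, and depth does not apply to PCR. A second deposited table holds the authors' own ratios against the reference gene UBQ and was not used. Samples were grouped by their labels, and 0 columns of values belonged to no sample. The 1880 rows were taken as 5 plates of 376 consecutive rows; 31 rows had a deposited Ct of exactly 40 at 10 d or 5 d, which was kept as given.

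Log2 changes, counts past 2-fold and 10-fold, and medians over families with at least 10 rows and over gene groups were computed with no test. Named genes are the 12 most increased and 12 most decreased AP2/EREBP and ABI3/VP1 rows with a Ct in both columns and members of the groups written by hand. The members and lists were chosen with earlier results of these data known. Codes were compared with the study's own gene list: 64 of 73 AP2/EREBP and ABI3/VP1 codes carried the same profile over the 6 groups within 2 cycles (root mean square), against 75 of 655 codes of other families. The 9 exceptions lie in a run of 22 consecutive codes of AP2/EREBP, which were kept in counts and not named. The remaining codes of the named families, among them those of FUS3, LEC2, HRE2, ERF11, TINY2 and DREB2E, could not be checked in this way. Of the 1872 unique codes 1865 matched the TAIR10.1 annotation by locus, including all 159 rows of the named families, and no coordinates or sequences were used. The computation was tested on simulated data. Alternatives were 3 other centrings, 3 other Ct filters, 2 other treatments of an empty Ct and 2 added after the values were seen. Python 3.11.15, numpy 2.4.6, pandas 2.3.3 and matplotlib 3.10.9 were used.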

Additional observations from a re-analysis of the deposited data

Results flagged for a closer look

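Of the AP2/EREBP and ABI3/VP1 rows, 5 passed 2-fold in opposite directions in the 2 genotypes between 5 d and 10 d, of which 3 have doubtful codes. All were among the 132 AP2/EREBP rows that entered in both genotypes. Of them, 1 was higher in Col-0 and lower in tanmei, and 4 were the reverse. Over all 1592 rows that entered in both, these numbers were 37 and 32, so such rows were not more frequent in the named families. The change of RAP2.9 was -2.48 in Col-0 against 2.54 in tanmei, with a Ct of 25.59 at 10 d and 23.77 at 5 d in Col-0, against 27.25 at 10 d and 29.67 at 5 d in tanmei. That of AT1G80580 was -1.54 in Col-0 against 1.38 in tanmei, with a Ct of 26.57 at 10 d and 25.69 at 5 d in Col-0, against 27.60 at 10 d and 28.85 at 5 d in tanmei. With no centring the Col-0 change of AT1G80580 was -0.88, no longer past 2-fold, and that of RAP2.9 was -1.82. With 1 mean per group these differences between genotypes were not tested.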

How the results depend on the processing

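No paired analysis was possible because each group has 1 deposited mean, and for the same reason no replicate could be left out. With no centring, which keeps the lower Ct of most genes at 10 d, 472 rows were at least 2-fold higher and 142 lower, and 63 at least 10-fold higher; of AP2/EREBP rows 54 were higher and 5 lower, of ABI3/VP1 rows 1 was higher and 1 lower, 9 group medians passed 2-fold, all upwards, in place of 3 upwards and 1 downwards, and 2 family medians in place of 1. With 1 median over all plates, 8 group medians passed 2-fold, 7 of them upwards. With a Ct below 30 in at least 1 column, 16 rows were at least 10-fold higher, 3 at least 10-fold lower and 0 family medians passed 2-fold. With a Ct below 35 in both columns these numbers were 16, 4 and 0. In both settings fewer than 10 JUMONJI rows were left, so that family dropped out of the count of medians. With a Ct below 40 in at least 1 column, 35 rows were at least 10-fold lower. All other counts stayed within 1.5 times under these and the remaining alternatives, and no named change, group median or family median past 2-fold turned its sign. Under no centring 12 named genes were no longer past 2-fold and 17 others passed it. Rows near a limit are uncertain, with 233 of the 1663 changes within 0.2 of a 2-fold limit and 54 rows whose lower Ct lay from 34 to just below 35, next to 53 rows from 35 to just below 36 that did not enter.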

Other observations

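Some members of the gene groups had no Ct below 35 at 10 d or at 5 d in Col-0 and so entered no count of that comparison. ERF109, an ERF induced within minutes by wounding, had Ct values of 24.39, 40 and 36.88 at 0, 5 and 10 d. DDF2 had 30.26, 36.94 and 35.96 at 0, 5 and 10 d. Both were thus amplified many cycles later in cultures than in explants. SMZ, an AP2-type repressor of flowering, was listed at 40 at all 3 times in Col-0, and DREB2H likewise. Over all TF rows, the rows that entered through a Ct below 35 at 10 d alone numbered 70, and those at 5 d alone 30.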
